A study of Sus scrofa with 8 samples.

Results

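The transcripts of 10 genes through which cells take up, bind and activate long-chain fatty acids were followed in pig liver: CD36, SLC27A2 and SLC27A4 at the entry step, FABP1, FABP3, FABP4 and FABP5 as cytosolic carriers, and ACSL1, ACSL4 and ACSL5 as activating enzymes. They were chosen by gene symbol, each symbol matched 1 row of the expression table, and they made up 10 of its 18103 rows. All 10 passed the filter on low values, which left 13175 genes for the comparison.

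Long-chain fatty acids reach the liver cell bound to albumin or released from lipoproteins. The membrane protein CD36 and the fatty acid transport proteins of the SLC27A family favour their entry, small fatty acid binding proteins (FABP) hold them in the watery cytosol, and long-chain acyl-CoA synthetases (ACSL) join them to coenzyme A, after which they can be stored as triglycerides, built into phospholipids or oxidised. Hepatocytes are known to use mainly FABP1, SLC27A2, SLC27A5, ACSL1 and ACSL5, while CD36, FABP4 and FABP5 are best known from adipocytes, capillary endothelium and macrophages.

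Hepatic poly-A RNA of male Landrace x Large White pigs was sequenced as 100 bp paired-end reads in 8 libraries. The 4 Control pools held RNA of healthy animals at 4 months of age, in the initial state before the steatotic diet, and the 4 Steatosis pools held RNA of animals of 6 months of age after 2 months on a diet rich in saturated fat, fructose, cholesterol and cholate and deficient in methionine and choline. Each pool combined 2 pigs, so that the errors of mean FPKM given here are standard deviations (SD) between pools and not between pigs. The errors of log2 fold changes are standard errors (SE) of the fit. According to the study both groups are the same animals, sampled by biopsy at the start and after euthanasia at the end, and therefore diet, age and way of sampling cannot be told apart. The pools are whole liver, in which fewer cells of a type and less RNA per cell cannot be told apart either.

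Expression was given as FPKM, the fragments of a gene scaled to its transcript length and to the mapped fragments of the library, so that levels of different genes are set side by side per length. The lowest steps of FPKM in 260 genes of 400 to 600 bases placed the depth of the libraries between 91.7 and 100% of the deepest. Control pool 1 stood apart from all other libraries. The summed FPKM of 8 skeletal muscle genes was 2737 in it, between 0.93 and 20.3 in the other Control pools and at most 0.39 in Steatosis, and that of 7 stomach genes was 2255 against at most 44.2 elsewhere. Its sum of 6 adipocyte genes was 43.6, against 8.32 to 15.7 in the other 7 pools. The sum of 9 hepatocyte genes lay between 49182 and 87426 in every pool, Control pool 1 included at 59427. Most of that sum was albumin, 45743 FPKM in Control pool 1. It shows liver RNA in each pool and cannot show that a pool was liver alone. Results are therefore given with and without Control pool 1.

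The largest differences were those of CD36, FABP4 and FABP5, whose transcripts were scarce in most Control pools. CD36 and FABP5 rose in steatosis by 2.87 and 3.09 on the log2 scale, and FABP4 by 3.10 with 1 Control pool at the level of steatosis. FABP1, the main hepatic carrier, rose by 1.22 and ACSL4, a synthetase of polyunsaturated fatty acids, by 1.20. SLC27A2, ACSL1 and ACSL5, abundant in every pool, did not pass the test in either direction. The study asked for an adjusted p under 0.01 together with a change of more than 1 on the log2 scale. By these limits 4 of the 10 genes were called higher (CD36, FABP1, FABP5 and ACSL4) and 0 lower, when 6.01% of all tested genes were called higher and 0.334% lower. At an adjusted p under 0.05 alone, FABP4 and SLC27A4 joined them, 6 of 10 against 26.7% of all tested genes, and again 0 of 10 were lower, against 2.28% of all tested genes. The study, with a test of its own, lists FABP4 beside CD36, FABP1, FABP5 and ACSL4 among its differentially expressed genes. LPL, PPARG, SLC27A6 and FABP7, named below, are on that list too. At an unadjusted p under 0.05 there were 6 higher and 2 lower (FABP3 and ACSL5). The share of all tested genes at that limit was not counted, so these counts have no background beside them. The treat test of limma, which asks for a change beyond 1 on the log2 scale, called 0 of the 10 and 68 of all tested genes higher at an adjusted p under 0.01, and gave FABP5 an adjusted p of 0.0233. The Control and Steatosis pools did not overlap in 5 of the 10, all higher in steatosis, and over all tested genes 29.6% were separated upwards and 2.53% downwards.

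Most genes of the table were shifted upwards in steatosis. The median log2 fold change was 0.25 over all tested genes and 0.78 over the 10. When each library was divided by its median ratio to the average library, the median of all genes became 0.01, the calls over the whole table went from 792 higher and 44 lower to 422 and 77, and 1 of the 10 genes, FABP5, was still called, with 3.22% of all tested genes called higher. At an adjusted p under 0.05 alone the 10 genes gave 5 higher and 2 lower in that scaling (12.3% and 8.84% of all tested genes). In that scaling CD36 had a log2 fold change of 2.63 with an adjusted p of 0.0159, and FABP1 and ACSL4, with 0.97 and 0.95, missed both limits (adjusted p = 0.0486 and 0.0135). Without Control pool 1 the count called higher was again 4, now CD36, FABP4, FABP5 and ACSL4, with 6.03% of all tested genes higher and 0.298% lower, and at an adjusted p under 0.05 alone the count was 5 higher and 1 lower (23.7% and 2.14% of all tested genes).

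**Figure D1:**
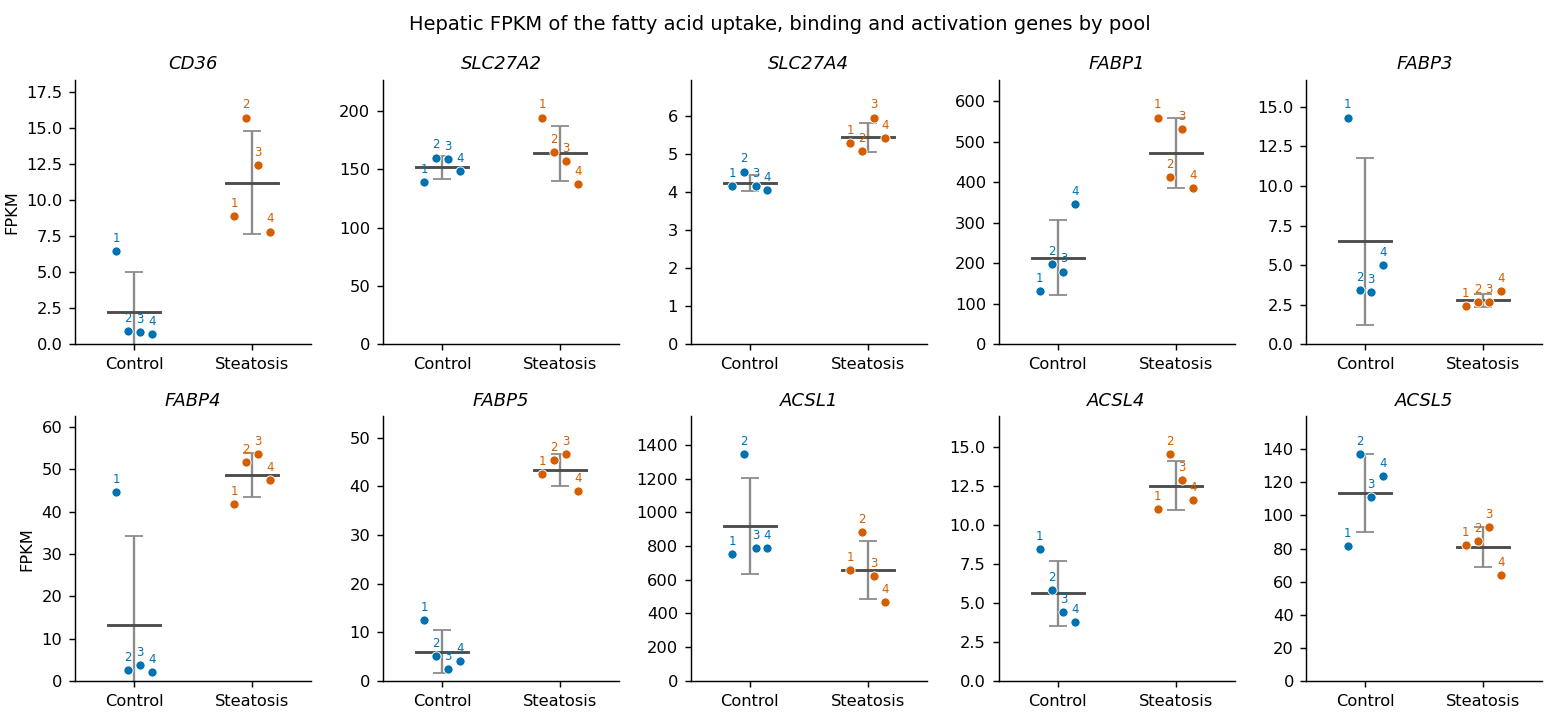
FPKM of each of the 10 genes (vertical axes, linear, from 0) in the 4 Control and 4 Steatosis pools, with the pool number at each point, the mean as a horizontal line and the SD between pools as a bar, cut at 0 where it would go below. CD36, FABP4 and FABP3 show Control pool 1 far above the other 3 Control pools. CD36, FABP5, FABP1, ACSL4 and SLC27A4 separate the groups with every pool.

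CD36 (gene 733702, chromosome 9, 99685748 to 99782296, Sscrofa11.1) is a scavenger receptor that binds fatty acids and oxidised lipoproteins at the cell surface. Its FPKM was 6.43, 0.89, 0.86 and 0.69 in Control pools 1 to 4 and 8.88, 15.71, 12.42 and 7.81 in Steatosis pools 1 to 4. Control pool 1 was 7.91 times the mean of the other 3, and yet every Steatosis pool was above it. The mean went from 2.22 ± 2.81 to 11.2 ± 3.59 FPKM (SD, n = 4 pools in each group), or by 2.87 ± 0.59 on the log2 scale (SE, limma adjusted p = 0.00651), and the difference of the means had an exact permutation p of 0.0286, the smallest that 4 pools against 4 can give when all regroupings are allowed. When the groups were exchanged only within pools of the same number the smallest possible exact p was 0.125, and CD36, FABP1, FABP5, SLC27A4, ACSL4, FABP3 and ACSL1 reached it. Without Control pool 1 the Control mean was 0.813 ± 0.108 FPKM and the log2 fold change 3.58 (limma adjusted p = 3.35e-05). CD36 passed both limits in 6 of 16 alternative fits, and leaving out any single library other than Control pool 1 kept the adjusted p under 0.05 but not under 0.01, with 0.0219 as the highest. The low Control values rest on few molecules, about 44.3 to 53.2 fragments in Control pools 2 to 4.

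SLC27A2 (gene 494011, chromosome 1, 121530449 to 121578994) encodes the transport protein FATP2, which also activates very long chain fatty acids. Its FPKM was 138.62, 159.96, 158.73 and 148.72 in Control and 194.24, 164.67, 157.30 and 137.64 in Steatosis. The groups overlapped, the means were 152 ± 9.96 and 163 ± 23.5 FPKM, and the log2 fold change was 0.10 ± 0.11 (limma adjusted p = 0.525) with a 95% interval of -0.15 to 0.35. The sign turned under the median ratio scaling, to -0.15. SLC27A2 and SLC27A5, the bile acid and fatty acid CoA ligase of the hepatocyte, together made up nearly all of the summed FPKM of the 6 SLC27A genes. SLC27A2 alone held 42.8 to 56.3% of that sum in Control and 41.5 to 51.8% in Steatosis.

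SLC27A4 (gene 100155567, chromosome 1, 268773792 to 268788208), the transport protein FATP4 of endoplasmic reticulum and other membranes, was far less abundant than SLC27A2 and its pools lay close together. Its FPKM was 4.17, 4.54, 4.17 and 4.05 in Control and 5.28, 5.07, 5.96 and 5.43 in Steatosis, so that the groups did not overlap. The mean went from 4.23 ± 0.213 to 5.44 ± 0.380 FPKM, or by 0.35 ± 0.10 on the log2 scale (limma adjusted p = 0.0288, exact permutation p = 0.0286), under the limit of the study on the fold. Blocking on the pool number gave an adjusted p of 0.0642, and leaving out Control pool 1 gave 0.0548. Over the omissions of 1 library at a time it lay between 0.0303 and 0.0921, under 0.05 in 3 of 8 (those of Control pool 2, Control pool 4 and Steatosis pool 2). Under the median ratio scaling the log2 fold change was 0.10 (adjusted p = 0.466).

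FABP1 (gene 445535, chromosome 3, 57850511 to 57854966), liver fatty acid binding protein, is the main cytosolic carrier of hepatocytes. Its FPKM was 130.27, 198.05, 179.41 and 345.86 in Control and 559.49, 411.94, 530.63 and 385.68 in Steatosis. Every Steatosis pool was above every Control pool, and Control pool 4 came closest to them. The mean went from 213 ± 92.8 to 472 ± 85.9 FPKM, or by 1.22 ± 0.26 on the log2 scale (limma adjusted p = 0.00775, exact permutation p = 0.0286). FABP1 passed both limits in 3 of the 16 alternative fits. Blocking on the pool number gave an adjusted p of 0.0161, and without Control pool 1 the log2 fold change was 1.01 (adjusted p = 0.0124). Of the 8 omissions of 1 library, only that of Control pool 4 (1.48, adjusted p = 0.00116) kept both limits, and the others gave adjusted p values of up to 0.0243. Without pool 1 of both groups and with the median ratio scaling the log2 fold change was 0.68 (adjusted p = 0.185).

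FABP4 (gene 399533, chromosome 4, 55096400 to 55101209), the binding protein of adipocytes, which macrophages and endothelium also make, was the transcript most divided by Control pool 1. Its FPKM was 44.73, 2.59, 3.74 and 2.15 in Control and 41.86, 51.83, 53.59 and 47.56 in Steatosis. Control pool 1 was 15.8 times the mean of the other 3 Control pools and lay within the Steatosis range, whose 4 pools were tight. The means were 13.3 ± 21.0 and 48.7 ± 5.22 FPKM, and their log2 fold change was 3.10 ± 0.79 (limma adjusted p = 0.0173, exact permutation p = 0.0571). Without Control pool 1 the means were 2.83 ± 0.821 and 48.7 FPKM, 17.2-fold apart, and the log2 fold change was 4.09 (limma adjusted p = 5.98e-06). About 31.9 to 51.6 fragments stood behind FABP4 in Control pools 2 to 4.

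FABP5 (gene 574074, chromosome 4, 55277831 to 55282585), the epidermal type of carrier, also made by macrophages and endothelium, lies 176621 bases beyond FABP4 on the same chromosome. Its FPKM was 12.46, 5.12, 2.36 and 4.11 in Control and 42.55, 45.34, 46.58 and 39.09 in Steatosis. All 4 Steatosis pools lay far above the highest Control pool, which was again pool 1. The mean went from 6.01 ± 4.45 to 43.4 ± 3.33 FPKM, which was 7.22-fold, or 3.09 ± 0.39 on the log2 scale (limma adjusted p = 0.000559, exact permutation p = 0.0286). FABP5 passed both limits in all 16 alternative fits of scaling, filter, pseudocount, block and libraries, in which its log2 fold change lay between 2.74 and 3.53. The highest of the single omissions was that of Control pool 1, with 3.52 (limma adjusted p = 3.16e-05).

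FABP3 (gene 399532, chromosome 6, 87943003 to 87950708), the binding protein of heart and skeletal muscle, went the other way without passing the test. Its FPKM was 14.33, 3.43, 3.29 and 5.0 in Control and 2.42, 2.65, 2.66 and 3.36 in Steatosis. Control pool 1, which carried the muscle transcripts, was 3.67 times the mean of the other 3, and Control pool 3 lay within the Steatosis range. The means were 6.51 ± 5.27 and 2.77 ± 0.407 FPKM, and the log2 fold change of -0.93 ± 0.40 had a limma adjusted p of 0.105 (exact permutation p = 0.0571). Its value was -0.47 when Control pool 1 was left out (limma adjusted p = 0.0889).

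The makeup of the carrier pool was described by the share of each gene in the summed FPKM of the 8 FABP family genes of the table, which does not depend on scaling between libraries. The sum was 189 to 357 FPKM in Control and 476 to 647 FPKM in Steatosis, without overlap. FABP1 held 94.6 to 96.8% of it in Control pools 2 to 4, 64.6% in Control pool 1 and 80.3 to 86.5% in Steatosis. The share of FABP5 was 1.15 to 6.17% in Control and 6.58 to 8.84% in Steatosis and that of FABP3 was 1.40 to 7.10% in Control and 0.374 to 0.706% in Steatosis, neither with overlap. FABP4 held 0.602 to 1.98% in Control pools 2 to 4, 22.2% in Control pool 1 and 6.47 to 10.1% in Steatosis. The ratio of FABP4 to FABP5 was narrow in Steatosis, 0.984 to 1.22, and wide in Control, 0.506 to 3.59.

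**Figure D2:**
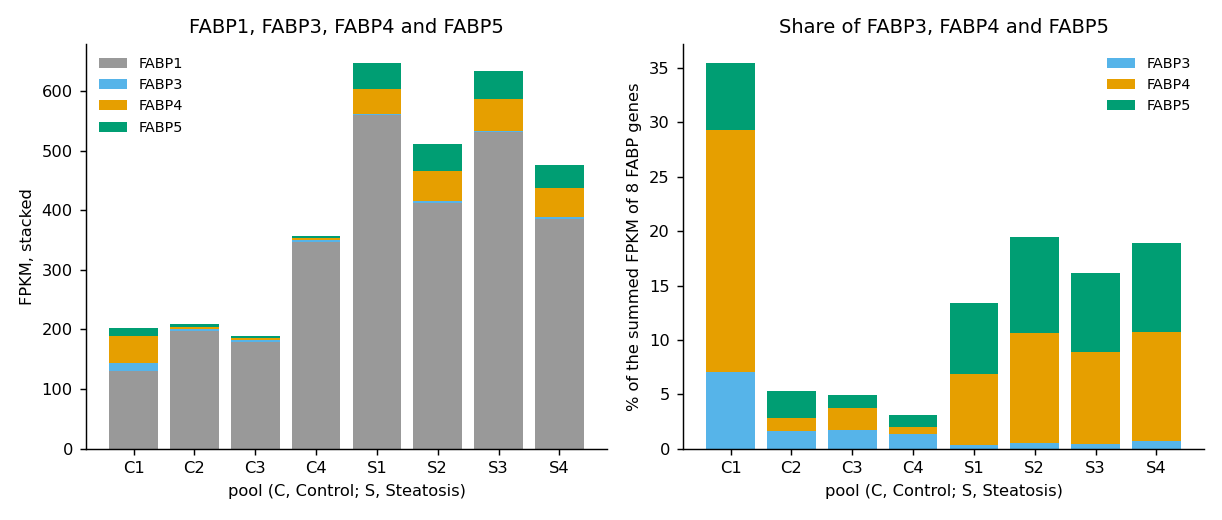
Stacked FPKM of FABP1, FABP3, FABP4 and FABP5 in each pool (left) and the percentage that FABP3, FABP4 and FABP5 held of the summed FPKM of the 8 FABP family genes (right), for Control pools C1 to C4 and Steatosis pools S1 to S4. FABP1 takes most of every bar on the left, and on the right FABP4 and FABP5 are small in C2 to C4, of similar size to each other in S1 to S4, and FABP4 is largest in C1.

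ACSL1 (gene 448982, chromosome 15, 45866858 to 45936327), the main long-chain acyl-CoA synthetase of hepatocytes, was the most abundant of the 10 transcripts in both groups. Its FPKM was 750.14, 1344.42, 788.36 and 790.84 in Control and 657.60, 880.53, 620.05 and 465.40 in Steatosis. Pool 2 was the highest of its group in both, and each Steatosis pool was below the Control pool of the same number. The means were 918 ± 285 and 656 ± 171 FPKM, and the log2 fold change of -0.48 ± 0.23 had a limma adjusted p of 0.140 (exact permutation p = 0.114). Blocking on the pool number left the same log2 fold change with an SE of 0.12 and an adjusted p of 0.0225, and under the median ratio scaling it was -0.73 (adjusted p = 0.0430).

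ACSL5 (gene 100157521, chromosome 14, 122777135 to 122828054), a synthetase of mitochondria and endoplasmic reticulum, was lower on average by as much. Its FPKM was 81.71, 137.02, 111.34 and 123.92 in Control and 81.95, 84.64, 93.06 and 63.88 in Steatosis. Control pool 1 lay among the Steatosis pools and the other 3 Control pools lay above all of them. The means were 113 ± 23.6 and 80.9 ± 12.3 FPKM, and the log2 fold change of -0.48 ± 0.17 had a limma adjusted p of 0.0604 (exact permutation p = 0.114). Without Control pool 1 it was -0.63 (limma adjusted p = 0.0110), and under the median ratio scaling -0.73 (adjusted p = 0.0194), in both cases past an adjusted p of 0.05 and short of the limits of the study.

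ACSL4 (gene 448980, chromosome X, 89760863 to 89838103), the synthetase that prefers arachidonic acid and other polyunsaturated fatty acids, was higher in Steatosis, where the means of ACSL1 and ACSL5 were lower without passing the test. Its FPKM was 8.43, 5.84, 4.40 and 3.78 in Control and 11.00, 14.53, 12.88 and 11.59 in Steatosis, with all Steatosis pools above all Control pools. The mean went from 5.61 ± 2.07 to 12.5 ± 1.56 FPKM, or by 1.20 ± 0.22 on the log2 scale (limma adjusted p = 0.00384, exact permutation p = 0.0286). It was 1.42 when Control pool 1 was left out (limma adjusted p = 0.00052). Leaving out Control pool 3 or Steatosis pool 2, 3 or 4 raised the adjusted p above 0.01, to between 0.0109 and 0.0145, and under the median ratio scaling the log2 fold change was 0.95 (adjusted p = 0.0135).

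Within the summed FPKM of the 5 ACSL genes, 848 to 1500 FPKM in Control and 549 to 993 FPKM in Steatosis, ACSL1 held 85.3 to 89.6% in Control and 83.7 to 88.7% in Steatosis. The share of ACSL4 was 0.389 to 0.994% in Control and 1.45 to 2.11% in Steatosis, without overlap. The ratio of ACSL5 to ACSL1 overlapped between the groups, 0.102 to 0.157 in Control and 0.0961 to 0.150 in Steatosis.

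**Figure D3:**
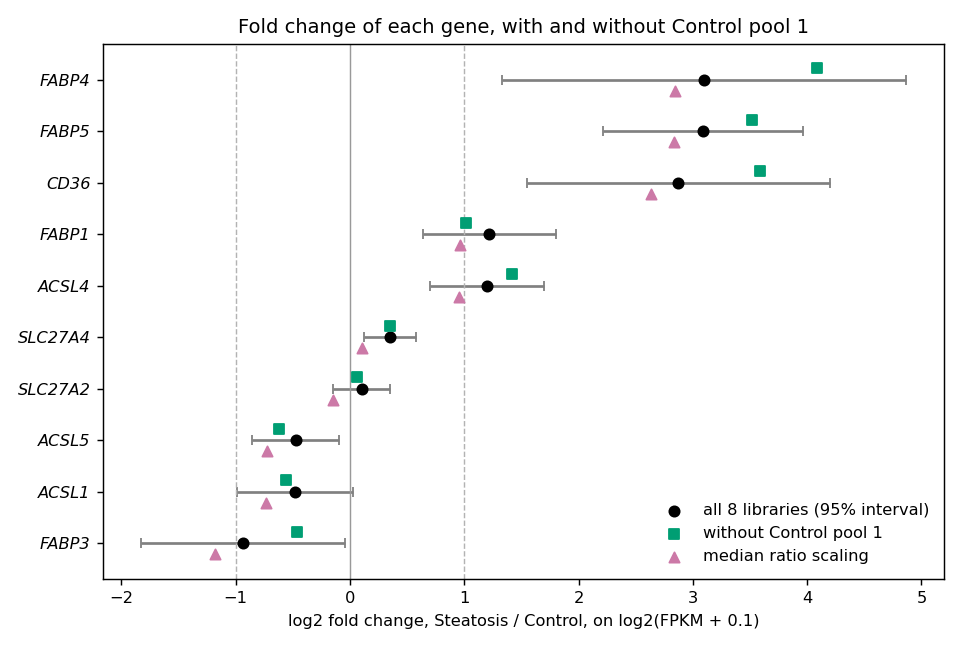
Log2 fold change of Steatosis over Control on log2(FPKM + 0.1) for each gene, as black points with 95% intervals from all 8 libraries, as green squares without Control pool 1 and as pink triangles after median ratio scaling, with dashed lines at the limits of the study (-1 and 1). Leaving out Control pool 1 moved FABP4 from 3.10 to 4.09 and CD36 from 2.87 to 3.58, FABP1, ACSL4 and the weaker changes moved less, and the scaling lowered every gene by about 0.25.

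The order of the levels, in FPKM, was shared at its top and differed at its bottom. In Control the means ran from ACSL1 (918) through FABP1 (213), SLC27A2 (152), ACSL5 (113), FABP4 (13.3), FABP3 (6.51), FABP5 (6.01), ACSL4 (5.61) and SLC27A4 (4.23) to CD36 (2.22), and the ranges of FABP1 and SLC27A2 overlapped, as did those of every neighbouring pair from FABP4 to CD36. In Steatosis the first 5 places were the same, followed by FABP5 (43.4), ACSL4 (12.5), CD36 (11.2), SLC27A4 (5.44) and FABP3 (2.77). When Control pool 1 was left out the first 4 places of Control stayed, followed by ACSL4 (4.67), SLC27A4 (4.25), FABP3 (3.91), FABP5 (3.86), FABP4 (2.83) and CD36 (0.813), so that the fifth place of FABP4 in Control rested on that pool. In Steatosis the neighbours that overlapped were ACSL1 with FABP1, FABP4 with FABP5 and ACSL4 with CD36. CD36 was last in Control with or without that pool and eighth in Steatosis, while FABP3 was sixth in Control with it, seventh without it and last in Steatosis.

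Markers of other cell types were read from the same fit, in which 6.01% of all tested genes were called higher by the limits of the study and 26.7% at an adjusted p under 0.05. Of 12 macrophage genes, 4 were called higher by the limits of the study (GPNMB, CD68, MARCO and TREM2) and 9 had an adjusted p under 0.05. TREM2, at most 0.29 FPKM in Control, passed the filter only through the Steatosis pools, so its call is no support. The summed FPKM of the 12 genes was 922 to 1190 in Control and 1953 to 2451 in Steatosis. GPNMB, a glycoprotein of lipid-laden macrophages, was 17.60 to 32.61 FPKM in Control and 405 to 1096 FPKM in Steatosis. Of 9 endothelial genes 2 passed an adjusted p of 0.05, both higher and a smaller share than that of all tested genes, and the summed FPKM was 146 to 178 in Control and 195 to 209 in Steatosis. Of 7 stellate cell genes 3 passed an adjusted p of 0.05, all higher. By the limits of the study 1 stellate cell gene was called higher, LRAT (log2 fold change 1.25, limma adjusted p = 0.000773), and 0 of the endothelial or hepatocyte genes. The stellate cell sum was 220 FPKM in Control pool 1, 48.7 to 121 in the other Control pools and 101 to 249 in Steatosis. Of 9 hepatocyte genes 1 passed an adjusted p of 0.05, CYP2E1, also higher. CD36, FABP4 and FABP5 are expressed by macrophages and endothelium as well as by other cells, and the part of these cells in the result was not tested.

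The summed FPKM of the adipocyte list was not higher in Steatosis. ADIPOQ, the adipocyte hormone adiponectin, was 27.92, 0, 0.60 and 0.05 FPKM in Control and 0.02, 0.04, 0.02 and 0 FPKM in Steatosis, and LEP, leptin, was 0.40 FPKM in Control pool 1 and listed at 0 in the other 7 pools. The summed FPKM of the 6 adipocyte genes was 13.2 to 43.6 in Control and 8.32 to 12.9 in Steatosis, and the 2 most abundant besides ADIPOQ were not highest in Control pool 1, with PLIN1 at 3.01 FPKM there, up to 3.29 in the other Control pools and 1.22 to 2.52 in Steatosis, and CIDEC at 9.05, up to 13.74 and 6.49 to 9.68 FPKM. LIPE was highest in Control pool 1, at 3.14 FPKM against 0.39 to 0.94 in the other Control pools and 0.43 to 0.66 in Steatosis. With limma 0 of the 3 adipocyte genes that could be tested passed an adjusted p of 0.05 in either direction, nor did any at an unadjusted p of 0.05. In the Steatosis pools adiponectin was at or near 0. In Control pool 1 adiponectin was at 27.92 FPKM, ACTA1, the actin of skeletal muscle, at 1439 FPKM, and TFF1, a stomach peptide, at 727 FPKM. The part of adipose tissue, muscle and stomach in the FABP4 and CD36 values of Control pool 1 or of Steatosis was not tested.

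**Figure D4:**
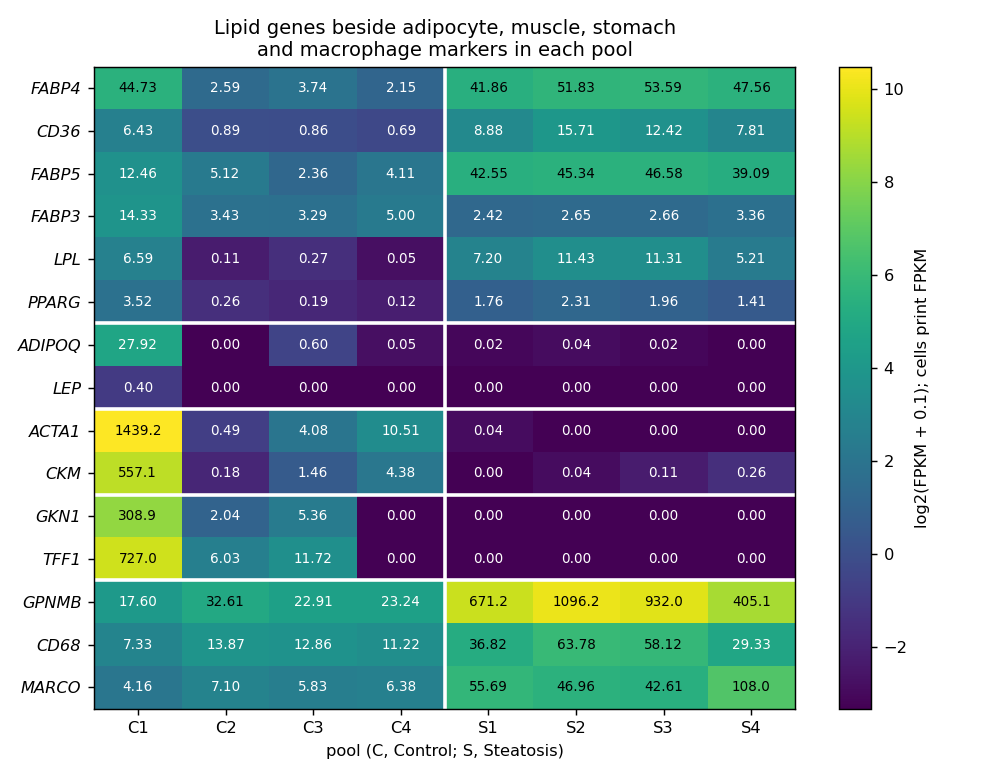
FPKM of 6 lipid genes, 2 adipocyte, 2 skeletal muscle, 2 stomach and 3 macrophage genes (rows) in each pool (columns, C for Control and S for Steatosis), with the value printed in each cell and the colour on a log2(FPKM + 0.1) scale. FABP4, CD36, LPL and PPARG are high both in C1 and in S1 to S4, ADIPOQ and the muscle and stomach genes are high in C1 and at or near 0 in S1 to S4, LEP is at 0.40 in C1 and 0 elsewhere, and the macrophage genes are high in S1 to S4.

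The neighbouring steps of the same route were read from 61 further genes in 5 lists, of which 53 were in the table and 45 could be tested. By the limits of the study 1 was called higher and 0 lower, and at an adjusted p under 0.05 there were 13 higher and 2 lower. Over all tested genes 6.01% and 0.334% were called and 26.7% and 2.28% had such an adjusted p, so that the share past the adjusted p was near the background and the share called higher below it. The median log2 fold change was 0.24, close to the 0.25 of all tested genes. At an unadjusted p under 0.05 there were 17 higher and 2 lower, with no share of all tested genes counted at that limit. ACOT9, a mitochondrial acyl-CoA thioesterase, which splits the product of the synthetases back into fatty acid and coenzyme A, was the 1 called, from 1.75 ± 0.296 to 4.12 ± 0.362 FPKM, or by 1.20 ± 0.15 on the log2 scale (limma adjusted p = 0.000449) and no overlap.

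Of 12 further genes of uptake and binding, 4 passed an adjusted p of 0.05, all higher (26.7% of all tested genes), with a median log2 fold change of 0.20. Their most abundant members, the acyl-CoA binding protein DBI (617 ± 114 and 658 ± 30.0 FPKM) and the sterol carrier SCP2 (271 ± 49.0 and 242 ± 14.3 FPKM), overlapped between groups, with log2 fold changes of 0.11 and -0.14. Those that passed, chosen for mention after their values were seen, were SLC27A3, SLC27A6, ACBD4 and GOT2. SLC27A6, a transport protein at 0.460 ± 0.238 FPKM in Control and 1.5 ± 0.656 FPKM in Steatosis, had the largest log2 fold change of them, 1.49 (limma adjusted p = 0.0155), and with the pool number as a block it passed both limits of the study (adjusted p = 0.00304). FABP7, the brain type of carrier, was listed at 0 in all 4 Control pools and at 0.73, 1.0, 1.58 and 0.07 FPKM in Steatosis, too low to be tested.

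Of 10 further acyl-CoA synthetases 2 were higher and 1 lower at an adjusted p under 0.05 (26.7% and 2.28% of all tested genes), and the median log2 fold change was 0.12. The medium-chain synthetases ACSM4 (424 ± 57.3 and 394 ± 24.7 FPKM) and ACSM2B (76.4 ± 23.4 and 79.6 ± 8.42 FPKM), the most abundant, had log2 fold changes of -0.10 and 0.10 and overlapping groups. Those that passed, again named after their values were seen, were the mitochondrial acetate enzyme ACSS1 and the medium-chain enzyme ACSF2, higher with 2.72 ± 0.197 and 15.4 ± 1.16 FPKM in Steatosis against 1.32 ± 0.218 and 7.82 ± 1.63 FPKM in Control, and the cytosolic acetate enzyme ACSS2, lower at -0.72 (limma adjusted p = 0.0318). Of 6 thioesterases, ACOT9 and ACOT7 passed an adjusted p of 0.05, both higher (26.7% of all tested genes), and the median was 0.52, while ACOT13 (26.04 to 48.10 FPKM in Control, 34.02 to 45.79 in Steatosis) and ACOT8 (8.34 to 12.88 and 9.97 to 12.99 FPKM) did not.

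Of 6 genes of fatty acid supply from lipoproteins, 2 were higher at an adjusted p under 0.05 (26.7% of all tested genes), and the median log2 fold change was 0.22. Hepatic lipase, LIPC, went from 123 ± 16.4 to 174 ± 7.53 FPKM (log2 fold change 0.51, limma adjusted p = 0.00617) without overlap, and its maturation factor LMF1 from 18.0 ± 1.81 to 20.5 ± 1.21 FPKM (adjusted p = 0.178). Lipoprotein lipase, LPL, chosen after its values were seen, followed CD36, with 6.59, 0.11, 0.27 and 0.05 FPKM in Control and 7.20, 11.43, 11.31 and 5.21 FPKM in Steatosis. Control pool 1 of LPL lay within the Steatosis range, as for FABP4 but not for CD36. The log2 fold change of LPL was 4.00 ± 1.01 (limma adjusted p = 0.0160). When Control pool 1 was left out it was 5.22 (limma adjusted p = 3.73e-05). The other Control pools lay under 0.3 FPKM, so LPL entered that fit only through the Steatosis pools and its p value is no support.

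Of 11 transcriptional regulators, not all of which respond to fatty acids, 3 were higher and 1 lower at an adjusted p under 0.05 (26.7% and 2.28% of all tested genes). Their median log2 fold change was 0.29. The oxysterol receptor NR1H3 went from 65.9 ± 7.31 to 95.5 ± 2.21 FPKM (log2 fold change 0.54, limma adjusted p = 0.00294), while the hepatocyte factor HNF4A overlapped between the groups (52.6 ± 4.83 and 54.2 ± 4.27 FPKM). PPARG, the lipid-sensing receptor best known from adipocytes, was 3.52, 0.26, 0.19 and 0.12 FPKM in Control and 1.76, 2.31, 1.96 and 1.41 FPKM in Steatosis. It was named after its values were seen and was highest in Control pool 1. Its log2 fold change was 1.85 with all 8 libraries (limma adjusted p = 0.0893), which did not pass. Without Control pool 1 it was 2.77 (limma adjusted p = 0.000131). The other Control pools lay under 0.3 FPKM, so PPARG entered that fit only through the Steatosis pools and its p value is no support. PPARA, the receptor of the oxidative programme of hepatocytes, was 7.13 ± 2.08 and 6.65 ± 2.87 FPKM, a log2 fold change of -0.16 (limma adjusted p = 0.729).

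**Figure D5:**
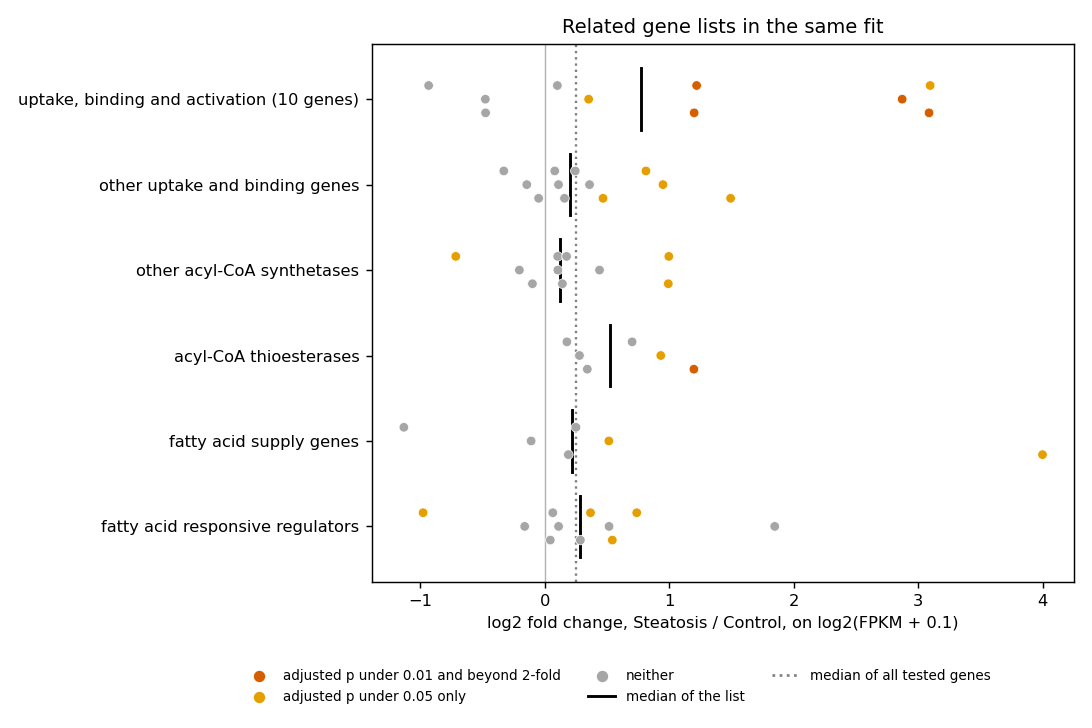
Log2 fold changes of Steatosis over Control, 1 point per tested gene, for the 10 genes and the 5 related lists, coloured by the limits passed, with the median of each list as a black line and the median of all tested genes (0.25) as a dotted line. The 10 genes spread from -0.93 to 3.10 around a median of 0.78, and the points of the other lists lie mostly between -1 and 1.5, with LPL at 4.00 apart.

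The 4 genes called by the limits of the study were also set beside genes whose profile over the 8 libraries was among the 3 most like theirs, by Pearson's r of log2(FPKM + 0.1). For CD36 these were PFN2 (r = 0.993), LPL (0.989) and CXCL14 (0.984), for FABP1 ENTPD3 (0.989), CITED2 (0.974) and VAV3 (0.970), for FABP5 SCIN (0.988) and GPM6B (0.987), and for ACSL4 SLC25A24 (0.993), GAB2 (0.991) and FRMD3 (0.990). These values describe 8 libraries in 2 groups and carry no test, since any pair of genes that differ between the groups correlates over them.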

How the data were processed

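Per the labels, liver RNA was pooled, enriched for poly-A transcripts and sequenced on the DNBseq platform. The authors filtered the reads and estimated expression against Sus scrofa 11.1, with HISAT2 2.0.4, Bowtie2 2.2.5 and RSEM 1.2.12 named in the submitters' processing notes, and deposited FPKM for 17778 known genes and 325 new transcripts. No scaling between libraries is given in the sources used here. The deposited comparisons by the authors of single pools (fold changes and FDR) were not used, apart from their gene lengths. The depth of each library was estimated from the lowest steps of FPKM. Coordinates and gene IDs are those of RefSeq, assembly Sscrofa11.1, in which all 10 genes were matched.

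The fit was made in R 4.3.3 with limma 3.58.1. A gene entered it if 4 or more libraries reached 0.3 FPKM (13175 genes), its values were taken as log2(FPKM + 0.1), the prior variance followed the mean, no covariate besides the group was used, and p values were adjusted after Benjamini and Hochberg. Fold changes are on that scale, which understates those of low genes. The scripts were tested on simulated data. For the mean FPKM of single genes all 70 regroupings were enumerated (two-sided exact permutation test). Plots came from matplotlib 3.10.9 and tables from pandas 2.3.3 with numpy 2.4.6, in Python 3.11.15. Nothing states that pools of a group are independent beyond their 2 pigs, so the p-values measure the spread between these pools. Pools with the same number deviated together from their group means over all tested genes (r = 0.16, 0.35, 0.32 and 0.25), and their number was taken to pair them, although no source used here says which pigs each pool held.

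The 10 genes, the 5 pathway lists and the 8 marker lists were chosen with earlier results of these data known. The genes named were the 10, of each pathway list those within the limits of the study and the 2 of highest mean FPKM, at most 3 of each marker list by mean FPKM, and the 3 most alike genes (1 of them is not reported here), and others are marked as named after their values were seen, as were LEP, LIPE, CD68, MARCO, TREM2, CYP2E1, GKN1, ACOT7, FABP7, PPARA and SLC27A5. The listed symbols FABP9, FABP12, ACSBG2, ACSM1, ACOT1, ACOT2, ACOT4, THEM4, MB and KRT7 were not analysed here, nor was TF, whose symbol 2 rows share. Of 5 cholangiocyte genes found, none of the 4 tested passed an adjusted p of 0.05 with limma (2 an unadjusted one). Of the muscle and stomach lists 1 gene each could be tested, ACTA1 with a limma adjusted p of 0.0211, lower in Steatosis, and PGC with 0.614. ACTA1, at most 0.04 FPKM in Steatosis, passed the filter only through the Control pools, so its p value is no support. The alternatives were median ratio and upper quartile scaling, no filter or a stricter one, a pseudocount of 1, omission of each library, the block on pool number, the treat test of limma, and a limit of 0.001 on the adjusted p. Leaving out pool 1 of both groups, alone and with median ratio scaling, and the exact permutation test within pools of the same number (16 sign patterns) were chosen after seeing the data.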

Additional observations from a re-analysis of the deposited data

Results flagged for a closer look

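In 42 groups of 4 pools, those of the 10 genes and of 11 related genes, the gap between the highest or lowest pool and its nearest neighbour was set against the range of the group, and 4 passed Dixon's 95% critical value. Chance passes about 1 in 20 such groups. In Control, pool 1 stood apart with CD36 at 6.43 FPKM, FABP3 at 14.33 FPKM and FABP4 at 44.73 FPKM, all above the other 3 pools, and pool 2 stood apart with ACSL1 at 1344.42 FPKM. Control pool 1 was also the highest of the 8 libraries in 8 of 8 skeletal muscle genes, 7 of 7 stomach genes and 3 of 6 adipocyte genes (ADIPOQ, LEP and LIPE), and the part of these transcripts in the 3 values was not tested. ACSL1 was also highest in pool 2 within Steatosis, at 880.53 FPKM.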

How the results depend on the processing

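The count of 4 genes called higher by the limits of the study became 1 under median ratio scaling, 1 under upper quartile scaling, 1 at an adjusted p under 0.001, 2 with no filter, 0 with limma's treat test, and 1 to 4 when single libraries were left out. Over all tested genes the 792 called higher became 422, 434, 418, 766 and 68 in the same order, and 573 to 788 with single libraries left out. They became 395 with a pseudocount of 1, 596 without pool 1 of both groups, and 316 with the median ratio scaling added. The 6 genes past an adjusted p of 0.05 became 5 or 6 in the fits of scaling, filter, pseudocount, block and single omissions, 5 without pool 1 of both groups, and 4 without pool 1 of both groups under median ratio scaling. Over all tested genes the 3519 higher at that limit became 1607 to 3573, 2275 and 1204 in the same order. The 0 genes lower at an adjusted p under 0.05 became 2 under median ratio scaling and 2 under upper quartile scaling (ACSL1 and ACSL5), 1 without pool 1 of both groups, 1 with the median ratio scaling added (ACSL5), and 0 to 1 when single libraries were left out. Over all tested genes the 300 lower at that limit became 1159, 1073, 226, 742 and 168 to 397 in the same order. The replicate block by pool number gave 1 lower (ACSL1) and took FABP1 from the calls of the study and SLC27A4 from those at 0.05. Over all tested genes the block gave 785 called higher and 343 lower at an adjusted p under 0.05. In the related lists the 1 called higher became 0 under median ratio scaling, upper quartile scaling or a pseudocount of 1, 2 with the block (SLC27A6 added), 4 without pool 1 of both groups, 0 with the scaling added, and 1 to 6 with single libraries left out (6 without Control pool 1, LPL and PPARG among them), and the 0 called lower became 0 to 1 (LIPG without Control pool 4). Without Control pool 1, LPL and PPARG passed the filter only through the Steatosis pools. SLC27A2 turned to -0.15 under median ratio scaling, -0.14 under upper quartile scaling, -0.0276 without pool 1 of both groups and -0.28 with the scaling added. The signs of the other 9 genes held in all 16 alternatives. FABP3, with about 23.3 to 38.1 fragments in Control pools 2 to 4, had the fewest reads behind it. The causes were not tested.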
